A study of Mus musculus with 24 samples.

Results

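The globin genes of the mouse alpha and beta clusters were followed across sorted bone marrow progenitors of 3 Jak2 lines. The set was chosen by gene name and holds 10 genes: the adult alpha globins Hba-a1 and Hba-a2, the adult beta globins listed as Hbb-bs, Hbb-bt, Hbb-b1 and Hbb-b2, the embryonic globins Hba-x, Hbb-y and Hbb-bh1, and a helper gene of globin assembly that was not analysed here. The 9 globin genes are 9 of the 24454 genes in the count table. Of these 9, the 6 adult rows passed the filter on low counts in every comparison and the 3 embryonic genes passed in none.

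Haemoglobin is a tetramer of alpha-type and beta-type chains with heme, and red cell precursors keep the output of the 2 clusters close because unpaired chains are harmful. Mice express embryonic globins in the yolk sac and switch to the adult genes as the liver and then the marrow take over red cell production. Adult globin transcripts climb steeply as erythroid precursors mature, so stem cells and megakaryocyte progenitors are expected to hold little of them.

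RNA came from the bone marrow of C57BL/6N mice that had received tamoxifen on 5 days and were sorted by flow cytometry 12 weeks later. The populations were LTHSC (long-term haematopoietic stem cells), preMegE (progenitors that can still form megakaryocytes and red cells) and MkP (megakaryocyte progenitors). Each of 8 groups held 3 libraries, 24 in all, and the labels do not say that replicates came from separate animals, so p-values measure only the spread between these libraries. KI is the genotype labelled Scl.Cre mouse Jak2 knock-in, E12 is Scl.Cre Exon12 (E12), and VF is the Vav1.Cre genotype whose label names the classical Jak2 substitution of valine by phenylalanine. All groups thus carry a Cre, driven by Scl in KI and E12 and by Vav1 in VF, so in every VF comparison the allele and the driver cannot be told apart. The series speaks of unmutated and mutant strains without saying in the labels which group is unmutated, and KI is used here only as a common reference. LTHSC and MkP had all 3 genotypes, and preMegE had KI and VF.

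Total counts ran from 10357877 to 29691635 per library, and 3 counts, the most that a count of 0 allows, came to between 0.0899 and 0.503 CPM (counts per 1000000, with TMM scaling of library sizes over all 24 libraries). Such floors cover counting error only, since the reads carry no molecular identifiers. The adult globins, counted once per near-copy pair, took 0.00126% to 0.0935% of a library's counts. The scaling factor within the population was under 0.8 in 4 libraries. These were replicate 4 of LTHSC E12, replicate 1 of preMegE KI and replicates 5 and 6 of MkP KI. LTHSC E12 4 also held 16070 CPM of Mpo, a granule enzyme of neutrophil precursors, against 111 and 123 in the other two LTHSC E12 libraries. The 10 stem cell markers summed to 1917 to 2776 CPM in 8 LTHSC libraries, 671 in LTHSC E12 4 and 379 to 565 in preMegE. The 10 megakaryocyte markers summed to 3179 to 16200 CPM in MkP and 499 to 1929 in LTHSC. In MkP the platelet collagen receptor gene Gp6 was the marker of that list that was at 0 in some libraries.

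The adult genes form nearly identical pairs, which decides what the counts can resolve. In GRCm38, Hba-a1 (Entrez 15122) lies at chr11:32283672-32284486 and Hba-a2 (Entrez 110257) at chr11:32296492-32297310, with the embryonic Hba-x between chr11:32276600 and chr11:32278116. Hbb-bt (Entrez 101488143) lies at chr7:103812524-103813923 and Hbb-bs (Entrez 100503605) at chr7:103826523-103827928, followed by the embryonic Hbb-bh1 at chr7:103841638-103843162 and Hbb-y at chr7:103851754-103853207. By the GENCODE M21 models on GRCm38, each of Hba-a1, Hba-a2, Hbb-bs and Hbb-bt has 3 exons. The coding sequences of Hba-a1 and Hba-a2 have 426 bases without the stop codon and differ at 1 base, C381T, counted from the first base of the start codon. Those of Hbb-bs and Hbb-bt have 441 bases and differ at 1 base, C417T. The 60 coding bases that end at each difference are shown because they hold all that separates the proteins' messages of a pair in the coding region; the differing base is in capitals.
Hba-a1: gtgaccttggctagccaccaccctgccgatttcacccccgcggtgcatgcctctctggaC
Hba-a2: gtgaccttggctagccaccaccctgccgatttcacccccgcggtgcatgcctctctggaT
Hbb-bs: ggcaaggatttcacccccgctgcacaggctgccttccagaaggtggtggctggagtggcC
Hbb-bt: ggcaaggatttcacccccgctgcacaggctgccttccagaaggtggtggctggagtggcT

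The count rows mirrored the alpha pair but not the beta pair. Among the beta rows, Hbb-bs matched Hbb-b1 and Hbb-bt matched Hbb-b2, whose sequences were not compared here. Hba-a1 and Hba-a2 held the same count in 3 of 24 libraries and differed by at most 155 counts, or 5.09%. Hbb-bs and Hbb-b1 held the same count in 21 of 24 and differed by at most 2 counts. Hbb-bt and Hbb-b2 held the same count in all 24, so Hbb-b1 and Hbb-b2, the gene names of another haplotype of the beta locus, added no measurement of their own. Hbb-bs and Hbb-bt, in contrast, differed in every library, with a count ratio between 0.603 and 1.79. The results below therefore give Hba-a1, Hbb-bs and Hbb-bt, each standing for its pair of matching rows, and a count of 2 called rows is 1 pair.

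The promoters are printed because the beta genes, nearly identical in their coding sequences, differ there. These are the 130 bases before each start in RefSeq's GRCm38.p6 models, at chr11:32283542-32283671 (plus strand) for Hba-a1, chr7:103827929-103828058 (minus strand) for Hbb-bs and chr7:103813924-103814053 (minus strand) for Hbb-bt. Capitals mark the CACCC box, the CCAAT box, the GATAA motif, the ATAAA motif and the ATATAA motif, each searched on both strands. CCAAT on the opposite strand reads as ATTGG here.
Hba-a1: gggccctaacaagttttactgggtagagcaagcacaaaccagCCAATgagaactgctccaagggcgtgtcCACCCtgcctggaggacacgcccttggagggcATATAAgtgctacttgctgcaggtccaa
Hbb-bs: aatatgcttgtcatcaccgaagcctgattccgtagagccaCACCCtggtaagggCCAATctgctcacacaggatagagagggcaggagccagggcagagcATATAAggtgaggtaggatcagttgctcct
Hbb-bt: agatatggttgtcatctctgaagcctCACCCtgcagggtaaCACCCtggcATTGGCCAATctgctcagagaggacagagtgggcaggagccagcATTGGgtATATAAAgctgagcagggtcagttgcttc

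CACCC, whose letters the erythroid factor Klf1 is known to bind, was found in all 3 promoters, as was the CCAAT box. A TATA box, ATATAA, was likewise found in all 3. Hbb-bt held CACCC at 104 and 89 bases before the start and 3 copies of CCAAT, where Hbb-bs held 1 of each, with CACCC at 90 bases. In Hbb-bt the ATATAA motif overlaps an ATAAA motif. Over the same window, CACCC was found in 33.7% of 32851 promoters, CCAAT in 22.4%, GATAA in 11.4%, ATAAA in 21.6% and ATATAA in 4.75%. The Hba-a1 and Hba-a2 promoters were identical over the 127 bases compared at a shift of 3 bases. Hbb-bs and Hbb-bt were identical at 96 of 129 bases (74.4%), so the beta pair is far less alike before the start than within the coding region. A match in these letters is a description and was not tested for function.

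The embryonic genes were at or near 0. Hba-x, the embryonic alpha-type chain, had 0 counts in all 24 libraries together, which allows up to 0.00551 CPM over their 525390785 counts. Hbb-y, an embryonic beta-type chain, had 5 counts in 3 libraries, at most 3 in MkP VF 1. Hbb-bh1, the other embryonic beta-type chain, had 11 counts in 2 libraries, 10 of them in preMegE VF 2 (0.436 CPM). No group raised an embryonic gene above these traces, and none of the 3 could be tested.

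Adult globins spanned a wide range of levels, from 5.45 to 1316 CPM for Hba-a1 and from 2.696 to 175 CPM for Hbb-bt. By group mean ± SD, Hba-a1 was at 560 ± 655 CPM in preMegE KI, 471 ± 205 in LTHSC E12, 170 ± 145 in MkP E12 and 163 ± 39.6 in preMegE VF. It was at 28.4 ± 6.26 CPM in LTHSC VF, 24.01 ± 15.4 in MkP VF, 17.0 ± 11.3 in MkP KI and 8.31 ± 3.12 in LTHSC KI. The libraries of neighbours in this order overlapped except between preMegE VF and LTHSC VF, where a gap separated the 4 higher groups from the 4 lower ones. Hbb-bs was highest in LTHSC E12 (104 ± 42.3 CPM) and lowest in MkP KI (6.27 ± 4.76), and Hbb-bt likewise (76.2 ± 29.7 and 5.47 ± 2.55). Every LTHSC E12 library (240 to 630 CPM of Hba-a1) lay above 5 of the 6 preMegE libraries (118 to 191) and below preMegE KI 1 (1316).

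**Figure D1:**
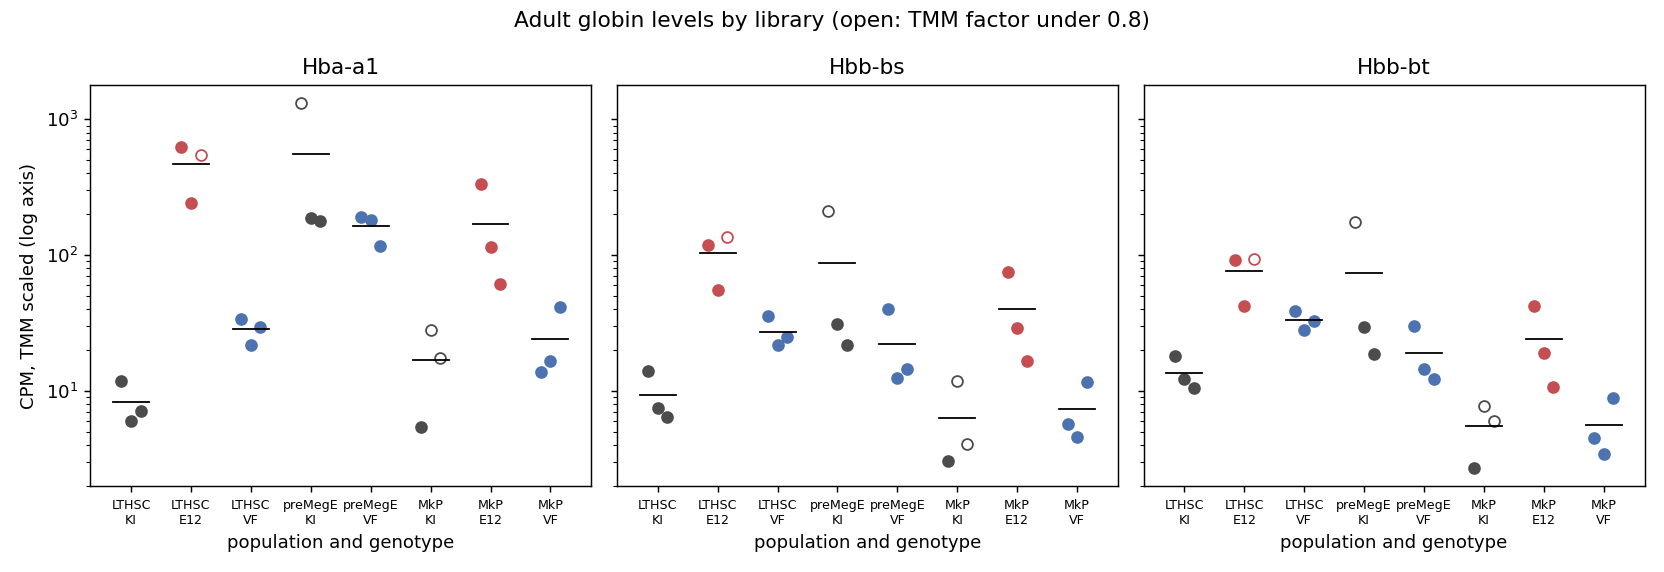
Level of Hba-a1, Hbb-bs and Hbb-bt in each of 24 libraries (CPM with TMM scaling, log axis), by population and genotype; black bars are group means and open points are the 4 libraries with a TMM factor under 0.8. Hba-a1 lay between 5.95 and 11.9 CPM in LTHSC KI and between 240 and 630 in LTHSC E12, and preMegE KI 1 stood at 1316.

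In stem cells, globins were far higher in E12 than in KI. Hba-a1 was at 630, 240 and 544 CPM in LTHSC E12 11, 2 and 4, and at 11.9, 5.95 and 7.14 in LTHSC KI 1, 2 and 3. Hbb-bs was at 119, 55.6 and 136 CPM against 13.9, 7.42 and 6.44, and Hbb-bt at 92.3, 41.9 and 94.3 against 18.0, 12.3 and 10.5. All 3 pairs were without overlap, a separation that 8.48% of tested genes showed in the same direction. Hba-a1 rose by 5.82 on the log2 scale (SE 0.46, adjusted p = 0.000776) and Hbb-bs by 3.48 (SE 0.43, adjusted p = 0.0304), while Hbb-bt differed by 2.48 (SE 0.36, adjusted p = 0.0543). Of the 6 adult rows 4 were called higher. Over all 14161 genes tested, 5 (0.0353%) were called higher, and these 4 rows are among the 5. Hba-a1 and Hba-a2 had the smallest p of all genes tested. With all beta rows summed into 1 locus the difference was 2.97 (adjusted p = 0.0674) and with the alpha rows summed 5.82 (adjusted p = 0.00162). The beta call depends on single libraries: Hbb-bs was not called without LTHSC KI 1, 2 or 3 or without E12 11 (adjusted p between 0.0599 and 0.264). LTHSC E12 4 also stood apart in markers of other cells, with 26980 summed CPM of neutrophil and monocyte markers and 955 of mast cell, basophil and eosinophil markers, against 785 to 3448 and 3.41 to 31.6 in the other LTHSC libraries. Without it Hba-a1 differed by 5.67 (adjusted p = 0.00103), Hbb-bs by 3.20 (adjusted p = 0.0252) and Hbb-bt by 2.26 (adjusted p = 0.0441). In bulk RNA, more cells that express globin and more globin RNA per cell cannot be told apart.

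VF stem cells lay between the other genotypes. Hba-a1 was at 34.1, 21.7 and 29.4 CPM in LTHSC VF 1, 2 and 3, above every KI library and below every E12 library. Hbb-bs (35.3, 21.7 and 25.1 CPM) and Hbb-bt (38.7, 27.9 and 32.5 CPM) were separated from both groups in the same way, as were 17.3% of tested genes in being higher than KI and 9.75% in being lower than E12. Against KI the log2 differences were 1.74 for Hba-a1 (SE 0.39, adjusted p = 0.201), 1.54 for Hbb-bs (SE 0.41, adjusted p = 0.291) and 1.25 for Hbb-bt (SE 0.35, adjusted p = 0.319). None of the 6 rows was called, where 0.0918% of genes were, and all 6 had an unadjusted p under 0.05, as did 8.11% of genes; DESeq2 called 4, and edgeR called all 6 with only the VF and KI libraries in the fit. The call depends on LTHSC E12 4: without that library Hba-a1 passed at the same difference of 1.75 (adjusted p = 0.0434). Against E12, Hba-a1 fell by 4.08 (SE 0.42, adjusted p = 0.00702), whereas Hbb-bs differed by -1.95 (adjusted p = 0.258) and Hbb-bt by -1.23 (adjusted p = 0.430). Here 2 of 6 rows were called lower, and they are among the 4 genes (0.0282%) called lower over all genes tested. The Hba-a1 call was lost without LTHSC VF 1, 2 or 3 (adjusted p between 0.0819 and 0.105). All 6 rows were called without LTHSC E12 2. The 2 contrasts with KI share the KI libraries, and the 2 with E12 share the E12 libraries.

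**Figure D2:**
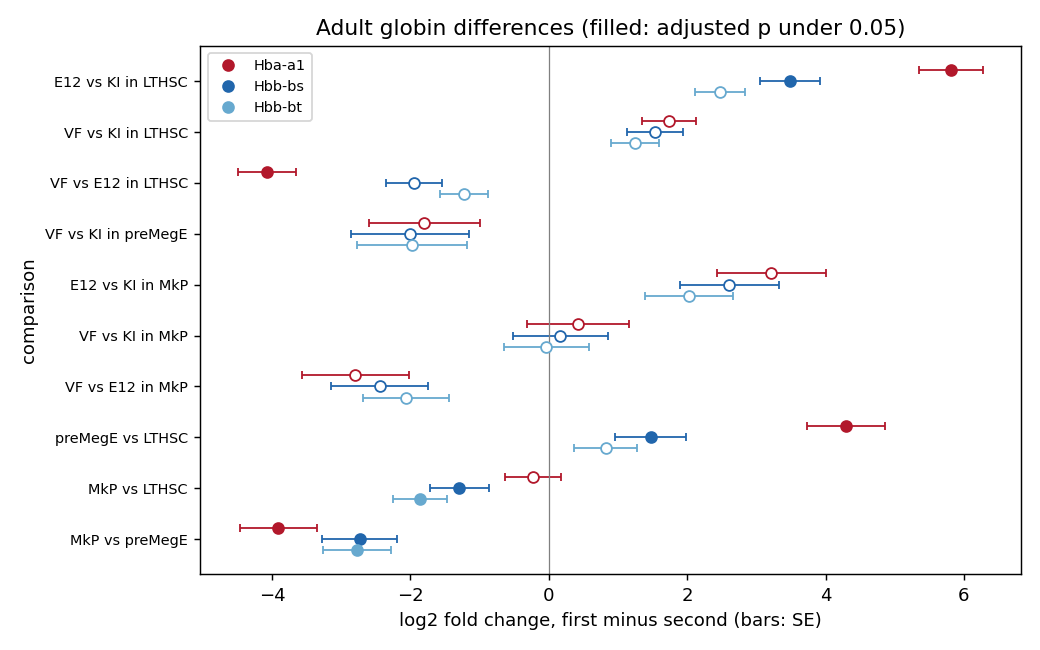
Fitted log2 fold change of Hba-a1, Hbb-bs and Hbb-bt (first group minus second) in 10 comparisons; horizontal bars are SEs and filled points have an adjusted p under 0.05 by edgeR. Alpha globin has the larger change in both E12 contrasts of LTHSC, at 5.82 against KI and -4.08 for VF against E12.

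In preMegE, where globins begin to be expressed, VF and KI overlapped. Hba-a1 was at 1316, 186 and 178 CPM in KI 1, 2 and 3 and at 191, 180 and 118 in VF 1, 2 and 3. Hbb-bs was at 211, 31.3 and 21.9 CPM in KI and at 39.9, 12.5 and 14.5 in VF, and Hbb-bt at 175, 29.3 and 18.6 in KI and at 30.2, 14.5 and 12.3 in VF. For these genes preMegE KI 1 was the library that stood apart. The fitted log2 differences were -1.80 for Hba-a1 (SE 0.81), -2.00 for Hbb-bs (SE 0.85) and -1.98 for Hbb-bt (SE 0.80), each with an adjusted p of 0.642. None of the 6 rows was called, against 0.0151% of genes, with 4 at an unadjusted p under 0.05 (6.58% of genes) and 0 called by DESeq2. Without preMegE KI 1 the differences shrank to -0.16, -0.26 and -0.34. Of 10 neutrophil and monocyte markers, all detected, 0 were called and the median log2 difference was -0.20. Their sum was at 8764 to 19440 CPM for VF against 3160 to 4260 for KI, with Mpo alone at 6961 to 10280 against 425 to 1766. The 8 lymphoid markers, of which 6 were tested and 0 called, summed to 1773, 633 and 350 CPM in KI 1, 2 and 3 and to 157 to 194 in VF. Megakaryocyte markers were likewise highest in preMegE KI 1, at 3394 CPM against 796 to 2272 in the other preMegE libraries. The part of these cell types in the globin values was not tested.

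In MkP, a lineage that does not make haemoglobin, E12 again held the most globin. Hba-a1 was at 335, 115 and 61.8 CPM in E12 2, 4 and 5, at 5.45, 28.0 and 17.5 in KI 4, 5 and 6, and at 13.7, 16.6 and 41.7 in VF 1, 2 and 3. Hbb-bs was at 75.6, 29.1 and 16.6 CPM in E12, 3.03, 11.7 and 4.05 in KI, and 5.68, 4.59 and 11.6 in VF. Hbb-bt was at 42.2, 19.0 and 10.7 CPM in E12, 2.696, 7.71 and 5.99 in KI, and 4.49, 3.43 and 8.90 in VF. E12 lay above both groups for each of the 3, while KI and VF overlapped for each.

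The MkP differences did not pass the test across all genes. E12 against KI gave 3.22 for Hba-a1 (SE 0.79, adjusted p = 0.0615), 2.61 for Hbb-bs (SE 0.72, adjusted p = 0.0619) and 2.03 for Hbb-bt (SE 0.63, adjusted p = 0.0795) on the log2 scale. edgeR called 0 of the 6 rows and 0% of all genes; the 6 rows had an unadjusted p under 0.05, as did 29.0% of genes, and DESeq2 called all 6. E12 libraries lay above all KI libraries for 16.1% of genes. Without MkP KI 4, the KI library of ordinary scaling, all 6 rows were called (Hba-a1 2.79, adjusted p = 0.00641), together with 6862 genes in all. VF against E12 gave -2.80 for Hba-a1, -2.44 for Hbb-bs and -2.07 for Hbb-bt, each with an adjusted p of 1; 0 rows and 0% of genes were called, DESeq2 called 0 of the rows, and 6 rows were at an unadjusted p under 0.05, as were 1.25% of genes. VF libraries lay below all E12 libraries for 8.18% of genes. VF against KI gave 0.42, 0.17 and -0.03 (adjusted p between 0.728 and 0.977), with 0 rows called by edgeR or DESeq2, 0% of genes called by edgeR and 0 rows at an unadjusted p under 0.05 (26.9% of genes). MkP KI 5 and 6 are libraries of low scaling factor. Their part in the KI values was not tested beyond leaving them out, and leaving out both leaves MkP KI 4 alone.

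Between populations, averaged over the genotypes that both have, alpha and beta globins did not move alike. From LTHSC to preMegE (KI and VF), Hba-a1 rose by 4.299 on the log2 scale (SE 0.57, adjusted p = 9.46e-06) and Hbb-bs by 1.47 (SE 0.52, adjusted p = 0.0266), while Hbb-bt differed by 0.82 (SE 0.46, adjusted p = 0.156). That is 4 of 6 rows called higher, where 21.2% of 14975 genes were. Without preMegE KI 1 the Hba-a1 difference was 3.49 and still called, Hbb-bs fell short at 0.61 (adjusted p = 0.271) and Hbb-bt came to 0.0091.

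From LTHSC to MkP, averaged over KI, E12 and VF, the 2 clusters parted. Hba-a1 differed by -0.23 (SE 0.41, adjusted p = 0.704), Hbb-bs fell by 1.29 (SE 0.42, adjusted p = 0.0217) and Hbb-bt fell by 1.86 (SE 0.39, adjusted p = 0.000906). The 4 beta rows were called lower, and 17.7% of genes were. This average joins genotypes whose means moved unlike. In LTHSC and MkP, mean Hba-a1 was 8.31 and 17.0 CPM for KI, 28.35 and 24.01 for VF and 471 and 170 for E12. For E12, mean Hbb-bs (103.5 and 40.4) and Hbb-bt (76.2 and 23.9) were lower in MkP as well, without such a parting. The change was not tested within single genotypes. From preMegE to MkP (KI and VF) all 6 rows fell, against 4.26% of genes: Hba-a1 gave -3.91 (SE 0.56, adjusted p = 0.000161), Hbb-bs -2.73 (SE 0.54, adjusted p = 0.00269) and Hbb-bt -2.78 (SE 0.49, adjusted p = 0.00104).

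No genotype difference was shown to differ between populations. The E12 minus KI difference was 2.48 lower in MkP than in LTHSC for Hba-a1, a log2 value of -2.48 (SE 1.01, adjusted p = 0.136), with -0.74 for Hbb-bs (adjusted p = 0.679) and -0.32 for Hbb-bt (adjusted p = 0.868). Of the 6 rows 0 were called by edgeR or DESeq2, and 2 were at an unadjusted p under 0.05; 0.0334% of genes were called and 24.3% were under that p. Without MkP KI 4 the Hba-a1 value was -2.91 and passed (adjusted p = 0.0281), with its copy. Without the 4 libraries of low scaling factor the Hba-a1 value was -0.78, but that setting leaves MkP KI 4 as the only KI library of MkP. The VF minus KI difference gave -3.55 for Hba-a1 between preMegE and LTHSC (SE 1.02, adjusted p = 0.705), which came to -1.93 without preMegE KI 1, and -1.25 between MkP and LTHSC (SE 1.00, adjusted p = 0.593). Both had 0 rows called by edgeR or DESeq2, with 6 and 0 rows at an unadjusted p under 0.05 (4.43% and 14.4% of genes), and 0% and 0.0134% of genes called.

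The alpha to beta balance was computed in each library as adult alpha over adult beta reads per kilobase of the deposited lengths, all copies summed. In stem cells it was 0.208, 0.170 and 0.236 in KI 1, 2 and 3, 0.259, 0.246 and 0.286 in VF 1, 2 and 3, and 1.67, 1.38 and 1.33 in E12 11, 2 and 4. Beta globin reads thus outnumbered alpha in KI and VF stem cells on this scale, and the order was turned in E12. In preMegE it was 1.92, 1.73 and 2.46 in KI and 1.53, 3.75 and 2.47 in VF. In MkP it was 0.533, 0.802 and 0.951 in KI, 1.596, 1.34 and 1.27 in E12 and 0.756, 1.17 and 1.14 in VF. The E12 libraries of LTHSC and MkP overlapped in balance (geometric means 1.45 and 1.40), which no other genotype's did.

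**Figure D3:**
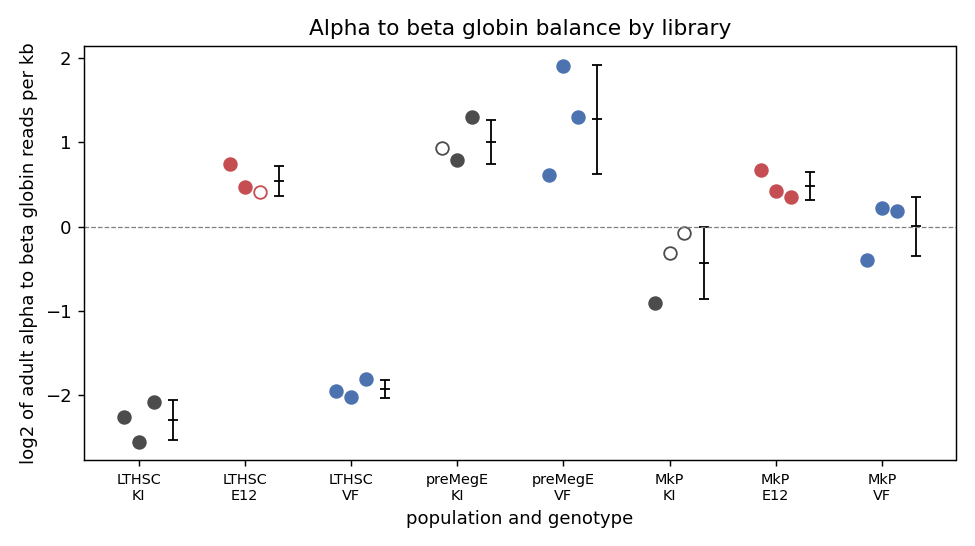
Log2 ratio of adult alpha to adult beta globin reads per kilobase in each of 24 libraries; black bars show the group mean and SD, open points are the 4 libraries with a TMM factor under 0.8, and the dashed line is a ratio of 1. The 3 KI and 3 VF stem cell libraries lie between 0.170 and 0.286, and the 3 E12 stem cell libraries between 1.33 and 1.67.

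Exact 2-sided permutation tests of the log2 balance were run for 10 comparisons. For 3 libraries against 3 the smallest possible p is 0.1, and it was reached, without overlap of the groups, by E12 against KI in LTHSC (difference 2.84), VF against KI in LTHSC (0.37), VF against E12 in LTHSC (-2.47), E12 against KI in MkP (0.91) and VF against E12 in MkP (-0.48), each with an adjusted p of 0.125 over the 10 permutation tests. VF and KI overlapped in preMegE (0.27, exact p = 0.6) and in MkP (0.44, exact p = 0.3). Exchanging populations within genotype allowed smaller p-values. The balance was 3.25 higher in preMegE than in LTHSC (exact permutation p = 0.005, the smallest possible), 1.25 higher in MkP than in LTHSC (exact permutation p = 0.00375) and -1.36 in MkP minus preMegE (exact permutation p = 0.005), each adjusted to 0.0167. The MkP to LTHSC difference was seen in KI and VF, with geometric means of 0.741 and 1.00 against 0.203 and 0.263.

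The level of the balance rests on the lengths used and on how reads shared by near copies were counted, which is not given. Whether reads shared by Hbb-bs and Hbb-bt entered the beta sum more than once was not tested. The deposited lengths of Hba-a1 and Hba-a2, 1118 and 1126 bases, exceed the spans of the genes in RefSeq, 815 and 819 bases, and the GENCODE transcripts have 699 and 554. With 1 row per pair and GENCODE lengths the geometric means were 0.388, 2.72 and 0.499 in LTHSC KI, E12 and VF, 3.77 and 4.55 in preMegE KI and VF, and 1.41, 2.60 and 1.87 in MkP KI, E12 and VF. Only the MkP KI mean changed sides of 1 clearly, and the LTHSC means of KI and VF stayed under it. This alternative was chosen after seeing the data.

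The beta genes also shifted against each other. Hbb-bt over Hbb-bs, per deposited length, was 1.31 to 1.68 in LTHSC KI, 1.11 to 1.32 in LTHSC VF and 0.704 to 0.785 in LTHSC E12. In MkP it was 0.667 to 1.501 in KI, 0.758 to 0.801 in VF and 0.565 to 0.662 in E12, and in preMegE 0.841 to 0.949 in KI and 0.768 to 1.18 in VF. On the deposited lengths, Hbb-bt was thus the more abundant beta globin in every KI and VF stem cell library. It was the less abundant in every E12 library. In LTHSC VF 1 the ratio was 1.11. Hbb-bs and Hbb-bt have deposited lengths of 639 and 630 bases, and their GENCODE transcripts have 628 and 703. The order in LTHSC VF 1 therefore rests on the lengths used, and ratios by GENCODE lengths were not computed. How reads shared by the 2 genes were counted is not given. These ratios were not tested.

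Regulators and heme genes were read from 4 lists of genes from the same pathway. Klf1, the activator of adult beta globin, was at 8.94, 6.15 and 4.51 CPM in LTHSC KI, 20.7, 28.7 and 105 in E12 11, 2 and 4, and 15.0, 19.2 and 17.0 in VF, without overlap. Its differences did not pass (E12 against KI 3.00, adjusted p = 0.151; VF against KI 1.36, adjusted p = 0.565). Gata1, the master factor of red cells and megakaryocytes, was at 26.6 to 28.8 CPM in LTHSC KI, 69.6 to 162 in E12 and 67.3 to 88.4 in VF (E12 against KI 1.88, adjusted p = 0.115). LTHSC E12 11 combined the highest Hba-a1 of its group with the lowest Klf1, and preMegE held 323 to 1023 CPM of Klf1, with Hba-a1 below every LTHSC E12 library in 5 of 6 libraries. In MkP, Klf1 was at 74.4 to 93.2 CPM in KI, 57.0 to 83.7 in E12 and 50.4 to 110 in VF. The groups overlapped, and E12 against KI gave -0.32 (adjusted p = 0.494). The part of Klf1 in the globin values was not tested. Bcl11a, which represses embryonic and fetal globins, averaged between 96.0 and 189 CPM over the 8 groups. By edgeR it was lower in MkP than in LTHSC (-0.54, adjusted p = 0.00696) and than in preMegE (-0.65, adjusted p = 0.0274). From LTHSC to MkP, Klf1 rose by 2.11 (adjusted p = 9.16e-06) and Gata1 by 2.17 (adjusted p = 7.4e-07).

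Alas2, the first enzyme of heme synthesis in red cells, stayed low: 3.54 to 5.71 CPM in LTHSC KI, 5.77 to 6.79 in E12, 2.25 to 4.18 in VF, and 2.33 to 8.07 in preMegE. Between LTHSC and preMegE it differed by 0.19 (adjusted p = 0.777), while 14 of 18 genes of heme synthesis and mitochondrial iron import rose and 0 fell (21.2% and 19.4% of all genes), among them the transferrin receptor Tfrc (3.16) and the mitochondrial glycine importer Slc25a38 (2.10). Of 32 red cell membrane and maturation genes 25 rose and 2 fell, with the blood group genes Ermap (8.57), Kel (7.47) and Rhd (7.93) among them. The respective medians were 1.74 and 3.17, against -0.02 over all genes. From preMegE to MkP, 12 of 18 heme genes and 21 of 32 membrane genes fell, as did 4.26% of all genes, and 0 rose. Among those that fell were Tfrc (-1.69) and Alas2 (-1.68). From LTHSC to MkP, 6 of 18 heme genes rose and 2 fell, and 16 of 32 membrane genes rose and 5 fell. Of all 14975 genes tested there, 5198 were called, 2649 of them lower. Alas2 gave -1.22 in that comparison (edgeR adjusted p = 0.0203). Of 20 erythroid transcription factors 5 rose and 4 fell from LTHSC to preMegE, and of 15 genes of heme sensing and haemoglobin breakdown 3 rose and 1 fell.

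Between genotypes the lists held 2 called genes, both in LTHSC and higher in VF than in KI: the water channel Aqp1 (2.30, adjusted p = 0.0304) and the lipid exporter Mfsd2b (2.37, adjusted p = 0.0485). In E12 against KI LTHSC, 0 of 18 heme genes and 0 of 32 membrane genes were called, with 7 and 16 at an unadjusted p under 0.05 (13.8% of all genes) and medians of 0.62 and 1.08 against 0.02 over all genes. In E12 against KI MkP, 0 of 18 and 0 of 32 were called, with 8 and 12 at an unadjusted p under 0.05 (29.0% of all genes) and medians of 0.59 and 0.93. The corresponding medians for VF against KI in preMegE were -0.0086 and -0.21.

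Markers of late red cells were set beside the globins, since such cells carry large amounts of globin RNA. Over 10 markers the summed level was 140 to 157 CPM in LTHSC KI, 152 to 183 in E12 and 119 to 129 in VF, most of it from Bpgm and Hemgn, which stem cells express as well. Gene by gene, the median log2 difference of the 10 between E12 and KI was 3.16 in LTHSC and 1.41 in MkP, against 0.02 and 0.0035 over all genes, with 0 of 10 called in either. Trim10, Tspo2 and Cldn13 were at 0 in all 3 KI libraries, and all 10 were detected in all 3 E12 libraries. The membrane transporter gene Slc4a1 was at 0 to 1.06 CPM in KI, 3.42 to 7.77 in E12 and 0.338 to 0.490 in VF. LTHSC E12 11, the E12 library with most Hba-a1, held 0.122 CPM of Cldn13 and 0.0612 of Tspo2, against 25.1 and 13.0 in E12 4. Other genes had the opposite order, with Slc4a1 at 5.69 CPM in E12 11 and 3.42 in E12 4, Trim10 at 1.71 and 0.631, and Alas2 at 6.79 and 5.77.

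In preMegE the same markers had another profile. For KI their sum ran from 517 to 1208 CPM and for VF from 285 to 576, with Cldn13 at 74.4 to 473 CPM and Tspo2 at 52.4 to 385 over both genotypes, while Slc4a1 was at 0.126 to 4.25. All 6 preMegE libraries held more Cldn13 and Tspo2 than any LTHSC E12 library, although 5 of them held less Hba-a1. In MkP the sum was 134 to 183 CPM in KI, 164 to 194 in E12 and 143 to 166 in VF. MkP E12 2, 4 and 5 fell in the same order for Hba-a1, Slc4a1 (11.5, 2.09 and 0.604 CPM) and Alas2 (8.19, 2.59 and 1.14). The part of late red cells or of their free RNA in the globin values was not tested.

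**Figure D4:**
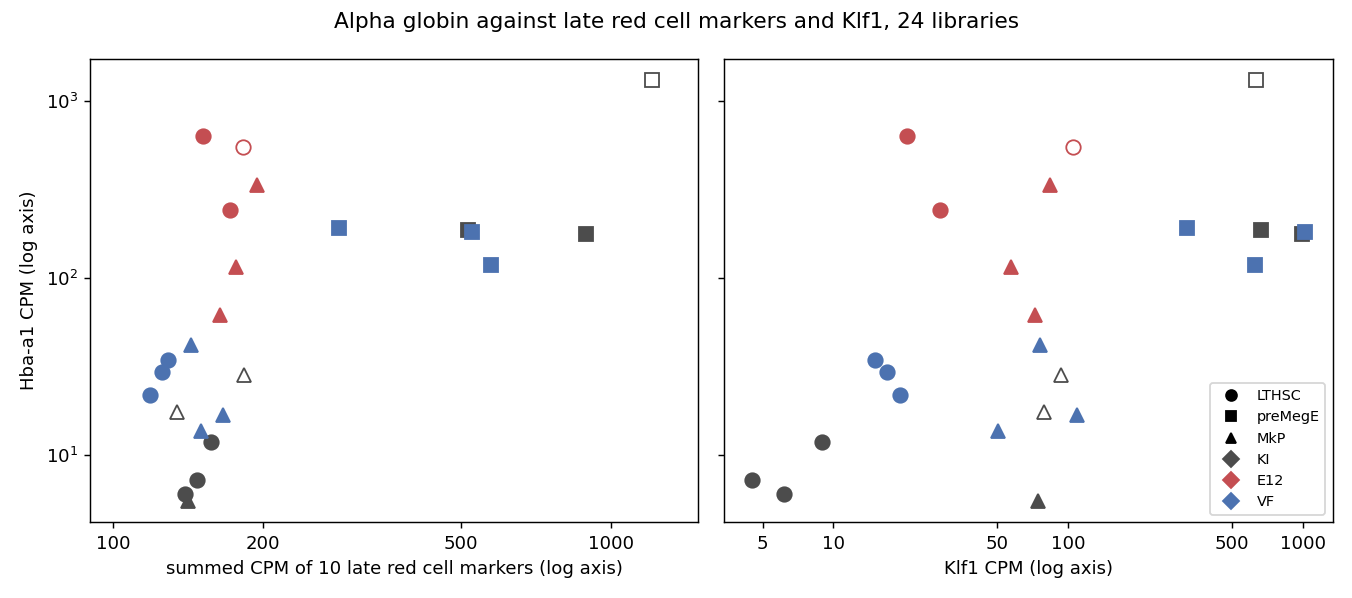
Hba-a1 (CPM, log axis) in each of 24 libraries against the summed CPM of 10 late red cell markers (left) and against Klf1 CPM (right), both on log axes; shapes give the population, colours the genotype, and open points the 4 libraries with a TMM factor under 0.8. The LTHSC E12 libraries reach 240 to 630 CPM of Hba-a1 at 152 to 183 summed marker CPM, and preMegE libraries 118 to 1316 CPM at 285 to 1208.

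Over the 24 libraries, the genes outside the set whose log2 CPM was most like that of the summed adult globins were compared among 9397 genes with a mean of at least 10 CPM. The highest were Mblac1 (Pearson r = 0.703), the DNA repair gene Rad52 (0.703) and Jchain (0.701), the joining chain of secreted antibodies, followed by Adck5, Itgb7, Lias, Nit1, Mtg1, Dntt and Cd244 (0.646). By comparison, r was 0.976 for Hba-a1, 0.949 for Hbb-bs, 0.896 for Hbb-bt, 0.616 for Alas2 (below the level minimum) and 0.428 for Klf1, which ranked 271. These values describe libraries that share populations and scaling, and several do not hold within a population: Itgb7 had 0.888 in LTHSC and -0.794 in preMegE. Jchain reached 362 CPM in LTHSC E12 4 and 8.96 or less in the other 23 libraries. Its r was 0.873 within LTHSC, and 0.465 within preMegE and 0.505 within MkP, which lack that library. The value without LTHSC E12 4 was not computed.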

How the data were processed

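RNA of 24 libraries (Smart-seq2) was analysed from the raw counts per Entrez gene that the authors deposited in 1 table; the submitters' processing notes name STAR 2.7.0c, Subread 1.6.4 with featureCounts, and the build mm10. Annotation, strand setting and the handling of multiply mapped reads are not given in the sources used here. Table columns headed MEP were read as preMegE libraries by matching genotype and number. Rows without a symbol (16, at most 0.0132% of counts) were kept. Comparing counts over genes, all 276 library pairs differed beyond sampling noise (chi-square over its degrees of freedom at least 19.8).

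edgeR 4.0.16 in R 4.3.3 was used (filterByExpr, TMM, 2-sided quasi-likelihood F test with robust fitting; Benjamini-Hochberg over all genes tested, threshold 0.05). Genotypes were fitted within a population over all its libraries, and populations and differences of differences over all 24. SE is the log2 fold change over the square root of F. CPM uses TMM factors over all 24 libraries. The balance used a pseudocount of 0.5 counts and exact permutation, its differences on the log2 scale. Likeness used log2 CPM with a prior count of 2.

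Named genes are all members; from the 4 lists those past the threshold, up to 4 per list and comparison by p, of which the text gives some, plus Klf1, Gata1, Bcl11a and Alas2; marker genes; and the 10 genes most like the globins. Members and lists were chosen with earlier results of these data known. Alternatives were RLE scaling, no filter, summed copies, only the groups compared, a replicate block, DESeq2 1.42.0, and libraries left out; the script was tested on simulated data. Single values of some marker genes are not reported here.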

Additional observations from a re-analysis of the deposited data

How the results depend on the processing

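Where the number of adult rows called (of 6) changed, it went as follows. For VF against KI in LTHSC, 0 became 2 without the 4 libraries of low TMM factor or without LTHSC E12 4 alone (the latter chosen after seeing the data), 6 with only these groups in the fit and 4 by DESeq2. For E12 against KI in LTHSC, 4 became 2 with only these groups and 6 with no filter on low counts or without the 4 libraries, and 2 to 6 with a library left out. DESeq2 also called Hbb-bt in that comparison (adjusted p = 3.68e-08), which edgeR did not. For VF against E12 in LTHSC, 2 became 0 with only these groups and 4 by DESeq2, with 0 to 6 with a library left out. For preMegE against LTHSC, 4 became 2 without the 4 libraries, and 2 to 4 with a library left out. For E12 against KI in MkP, 0 became 4 with no filter on low counts and 6 by DESeq2, with 0 to 6 with a library left out, and its difference from LTHSC had 0 to 2. The cause was not tested.

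Some signs turned. Without the 4 libraries Hbb-bt was 1.04 for VF against KI in MkP and -0.040 for preMegE against LTHSC. In the same setting Hba-a1 was 0.35 for the VF minus KI difference between MkP and LTHSC, and Hbb-bs and Hbb-bt were 0.47 and 0.82 for that of E12 minus KI. This setting leaves MkP KI 4 as the only KI library of MkP, so all of these values but the preMegE one rest on it. With a library left out, VF against KI in MkP ran from -0.28 to 1.00 for Hba-a1, -0.38 to 0.99 for Hbb-bs and -0.58 to 0.31 for Hbb-bt; the E12 minus KI difference between MkP and LTHSC ran from -1.57 to 0.039 for Hbb-bs and -1.01 to 0.036 for Hbb-bt; and the balance of VF against KI in preMegE ran from -0.050 to 0.60.

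Calls over all genes also moved. In the order VF against KI, E12 against KI and VF against E12, LTHSC had 13, 6 and 5, with lowest and highest counts of 11 and 931, 2 and 466, and 1 and 184 over the alternatives other than leaving 1 library out, which gave 1 to 7, 2 to 379 and 1 to 306. MkP had 0 each, with highest counts of 2560, 2840 and 13; leaving out MkP KI 4 gave 6737 and 6862 against KI. PreMegE had 2 (0 to 66), and MkP against preMegE 1128 (1035 to 2707). The 3 differences of differences had 0, 2 and 5, with highest counts of 33, 125 and 2047, and 2616 and 4531 without MkP KI 4 for the latter pair.

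Replicate numbers shared by groups were not taken to pair the libraries in the main fits. For same-numbered libraries, deviations from group means correlated between -0.091 and 0.256. Values were -0.006, 0.011 and 0.002 for LTHSC KI with LTHSC VF. For LTHSC VF with MkP VF they were 0.11, 0.064 and 0.087, each library matching best to its own number. Whether shared numbers mark shared animals or batches cannot be told from these values. With the replicate block, VF against KI in LTHSC had 6 adult rows and 705 genes called, VF against KI in preMegE 0 and 10, E12 against KI in MkP 0 and 9, preMegE against LTHSC 4 and 6053, and the VF minus KI difference between preMegE and LTHSC 0 and 8 (this last chosen after seeing the data). No paired analysis was possible for the other comparisons because the 2 genotypes compared share fewer than 2 numbers in the population or, between MkP and another population, KI shares none. At this depth the embryonic genes had too few counts to test.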
